A study of Homo sapiens with 7 samples.

Results

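The DNA replication and S phase genes described here are 36 genes chosen by name for their part in copying the genome, from origin licensing to chromatin assembly. All 36 were found by gene symbol in the deposited count table, each on 1 row, among 63677 genes in all. All 36 passed the filter on low counts, as did 17502 genes of the table. RNA was sequenced from T47D, an estrogen receptor-positive luminal human breast cancer cell line, in 7 libraries. Clone 2 and clone 4, with 2 libraries each, are resistant to palbociclib, an inhibitor of the cell cycle kinases CDK4 and CDK6. Per the labels' protocols, resistant cells were derived over 6 months of rising drug, which began at 1 uM and ended at 5 uM, and experiments were run without the drug unless noted otherwise. The labels also name a maintenance dose of the drug, which is not reported here. The parental line, with 3 libraries, is sensitive to the drug, and all cells shared an alpha MEM medium with serum, insulin, EGF and hydrocortisone. Each resistant group is 1 clone, so the comparisons describe these clones and not resistance in general. The labels call the libraries biological replicates without saying that they were separate cultures, so p-values measure the spread between these libraries, which may be technical.

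Before S phase, the origin recognition complex with CDC6 and CDT1 loads the MCM helicase ring onto DNA, and geminin (GMNN) later blocks CDT1 so that origins are not licensed again. CDC45 and the GINS complex turn the ring into an active helicase, polymerase alpha with primase lays the primers, polymerases delta and epsilon copy the strands on the PCNA clamp that the RFC complex loads, and the CAF-1 complex puts histones on the new DNA. Most of these genes are known targets of E2F factors, which the retinoblastoma protein RB1 holds back until cyclin-dependent kinases phosphorylate it. Palbociclib acts upstream of that step, so these genes are a usual readout of how far a treated luminal line enters S phase.

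Promoter windows are shown for 6 members, since binding sites of the E2F type are the feature most often named for these genes. Windows of CDC6 and GINS1 were drawn up too. Only windows with an E2F-type match were kept, save that of CHAF1B. CDC6 and GINS1 were left out because their matches lay 7 and 5 bases past the annotated start, outside the window. Each window is the 100 bases before the annotated transcription start in RefSeq (GRCh38.p14), read 5′ to 3′ on the strand of the gene. Capitals mark every match to TTTNNCGC, the E2F-type motif searched on both strands. A match on the other strand appears as its reverse complement. The windows lie at chr20:5126623-5126722 (minus strand) for PCNA, chr21:36385292-36385391 (plus strand) for CHAF1B, chr16:88803689-88803788 (plus strand) for CDT1, chr12:132687343-132687442 (minus strand) for POLE, chr13:33818049-33818148 (plus strand) for RFC3 and chr15:48332097-48332196 (plus strand) for DUT, where it is the window of 1 of several annotated starts. PCNA also has another annotated start, whose promoter held no E2F-type match and is not shown.
PCNA: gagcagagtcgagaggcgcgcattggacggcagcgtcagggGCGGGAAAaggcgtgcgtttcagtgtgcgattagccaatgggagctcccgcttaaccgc
CHAF1B: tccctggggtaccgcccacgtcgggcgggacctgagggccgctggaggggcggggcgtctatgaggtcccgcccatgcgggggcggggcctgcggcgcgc
CDT1: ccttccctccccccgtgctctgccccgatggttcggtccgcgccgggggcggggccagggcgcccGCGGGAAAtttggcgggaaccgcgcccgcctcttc
POLE: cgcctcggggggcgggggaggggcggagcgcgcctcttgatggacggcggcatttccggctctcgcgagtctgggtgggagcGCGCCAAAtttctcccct
RFC3: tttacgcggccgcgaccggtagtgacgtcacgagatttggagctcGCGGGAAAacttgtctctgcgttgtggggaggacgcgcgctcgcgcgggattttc
DUT: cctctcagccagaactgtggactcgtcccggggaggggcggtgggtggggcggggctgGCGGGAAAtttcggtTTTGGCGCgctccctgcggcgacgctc
The CHAF1B window holds no match to these letters. The other windows, each kept because it held a match, hold 1 match each, except that of DUT, which holds 2.

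The RefSeq promoter table, with 250 bases before and 50 after each start, held 33 of the 36 members. MCM4, MCM5 and GINS4 were the others. The E2F-type motif occurred in 20 of the 33 member genes (60.6%), against 12.5% of the 10615 tested genes in the table. Counted by promoter, it occurred in 20 of 45 member promoters (44.4%), against 6.89% of all 35116 promoters. CCAAT, searched on both strands, occurred in 20 of 33 members (60.6%), against 43.0% of the tested genes. By promoter, the shares were 55.6% of member promoters and 34.6% of all promoters. TTTGAA is the core of the CHR element known from G2 and M phase genes. It occurred in 2 of 33 members (6.06%), DUT and RRM1, against 13.7% of the tested genes. By promoter, the shares were 4.44% of member promoters and 15.2% of all promoters. In clone 2 against parental cells, the median log2 fold change was -0.28 over the 20 members with an E2F-type match and -0.29 over the 13 without one. The medians in clone 4 against parental cells were 0.00 with a match and 0.13 without, and those of clone 2 against clone 4 were -0.26 with and -0.31 without. A match is a run of letters and not a shown binding site.

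The libraries held 10997625 to 17524621 counts. Summed over the 36 members, levels were 2973 and 2953 CPM (TMM-scaled, edgeR) in clone 2, 3726 and 3492 CPM in clone 4, and 3312, 3114 and 3778 CPM in parental cells. Parental replicate 3 was thus the highest of the 7 libraries and both clone 2 libraries were the lowest. All 12 luminal breast markers had counts in every group, and their summed level was 11100 and 11500 CPM in clone 2, 13000 and 14100 CPM in clone 4 and 16000 to 19200 CPM in parental cells. Summed fibroblast markers were 226 and 251 CPM in clone 2, 82.4 and 114 CPM in clone 4 and 57.6 to 63.9 CPM in parental cells, with FAP at 0 in all groups. Leukocyte markers summed to 11 and 13.4 CPM, 10.3 and 12 CPM, and 5.69 to 7.18 CPM in the same order, with TYROBP at 0 in all groups. Endothelial markers summed to 29.4 and 30 CPM in clone 2, 14.6 and 16.6 CPM in clone 4 and 25 to 31.3 CPM in parental cells, with PECAM1 and TEK at 0 in all groups. Single genes made up much of these sums. KRT8 averaged 2740 CPM in clone 2, 3540 CPM in clone 4 and 6870 CPM in parental cells. KRT18 averaged 1400, 2340 and 2900 CPM in that order. At an adjusted p below 0.05 (edgeR), 1 luminal marker was called higher and 6 lower in clone 2 (58.3%, against 42.5% of all genes tested). In clone 4, 2 were called higher and 3 lower (41.7%, against 44.4%). GATA3 and KRT19 were called in neither clone, and TFF1 was called higher in both. In clone 2, COL1A1 (131 and 121 CPM) and COL3A1 (103 and 88.4 CPM) made up most of the fibroblast sum. Of the 5 fibroblast markers tested there against parental cells, 4 were called higher and 1, ACTA2, lower. The higher ones were COL1A1, COL3A1, LUM (2.82 and 3.54 CPM) and DCN (0.768 and 1 CPM). ITGAM had 4.01 and 3.48 CPM in clone 2 and at most 0.0733 CPM in parental cells. ENG made up most of each endothelial sum. The part of these markers in the results below was not tested. In bulk RNA, fewer cells in S phase and less of an RNA per cell cannot be told apart.

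Clone 2 against parental cells asks how the replication program of this resistant line compares with that of its origin. Each of the 6 roles held at least 1 member called lower, and 5 of the 6 MCM subunits were not called. PCNA, RFC4, RFC5, CHAF1B, CDC6, GMNN and DUT fell to between 0.654 and 0.712 times their parental levels. POLE, the catalytic subunit of DNA polymerase epsilon, was the only member called higher. In numbers, 1 member was called higher and 12 lower at an adjusted p below 0.05 (edgeR's quasi-likelihood test, Benjamini-Hochberg adjustment over all genes tested), or 36.1% of the members. The same test called 42.5% of all genes, 21.7% higher and 20.8% lower. The median log2 fold change was -0.28 over the members and 0.02 over all genes tested. Of the 36 members, 33 lay within 1.5-fold of the parental level, as did 11878 of the 17502 genes tested. Both clone 2 libraries lay above all parental ones for 6 members and below them for 20, against 34.2% and 31.6% of all genes, or 65.8% in either direction.

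The choice of scaling bears on this comparison. With library totals in place of TMM factors, the median of all genes moved by 0.147 on the log2 scale in the comparisons of clone 2, and 6 members were called higher and 8 lower. The member median was then -0.13, and the share of called genes that were higher was 68.7%, against 51.1% with TMM. Without clone 2 replicate 1, the member median was -0.29. Fewer members were then called lower, and so were fewer of all genes tested, with 1 clone 2 library left in the fit. The single higher call became 3 without parental replicate 3, 2 without either clone 4 library and 0 without any other library (edgeR, with 0 or 1 at an unadjusted p below 0.05, and 1 by DESeq2 on all libraries).

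Clone 4 against parental cells asks the same of the second clone. Here members moved both ways: GINS1, CHAF1B, RFC2 and CDT1 rose to between 1.34 and 1.61 times the parental level, while RFC3, ORC6, GINS3 and DUT fell to between 0.547 and 0.667 times. MCM2, MCM3, MCM4, MCM5, MCM7, RFC4, RFC5, CDC6 and FEN1 were not called. By the same test 8 members were called higher and 6 lower, or 38.9%, against 44.4% of all genes, with 22.1% higher and 22.3% lower. The median log2 fold change was 0.06 over the members and 0.01 over all genes tested, and 32 of 36 members lay within 1.5-fold of parental, as did 11468 of the 17502 genes tested. Both clone 4 libraries lay above all parental ones for 9 members and below them for 6, against 31.1% and 30.2% of all genes, or 61.2% in either direction. Leaving out a parental library moved the higher count to 4 (replicate 1), 5 (replicate 2) or 13 (replicate 3). Over all genes tested, 3067, 3490 and 3920 were then called higher in that order, against 3862 with all libraries. Both clones were set against the same 3 parental libraries, so their values share that error and are given side by side.

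Clone 2 against clone 4 sets the resistant clones against each other and uses no parental library in the contrast. CHAF1B, PCNA, GINS1, RFC2 and CDC45 were lower in clone 2, at 0.470 to 0.641 times the clone 4 level, and ORC6 and RFC3 were higher, at 1.46 and 1.47 times. The test called 2 members higher and 15 lower, or 47.2%, against 36.5% of all genes, with 19.6% higher and 17% lower. The median was -0.26 over the members and 0.03 over all genes tested. Both clone 2 libraries lay above both clone 4 libraries for 5 members and below them for 21, against 38.5% and 33.7% of all genes, or 72.2% in either direction. With library totals in place of TMM, 2 members were called higher and 8 lower, the member median was -0.12, and 71.3% of all called genes were higher, against 53.5% with TMM. With clone 2 replicate 1 or replicate 2 left out, the member median was -0.29 or -0.22. Fewer members were then called lower, and so were fewer of all genes tested, with 1 clone 2 library left in the fit. The higher count was 1 without clone 2 replicate 1, without clone 4 replicate 1 or without clone 4 replicate 2, and 0 without clone 2 replicate 2 (edgeR, with 2 at an unadjusted p below 0.05, and 2 by DESeq2 on all libraries).

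**Figure D1:**
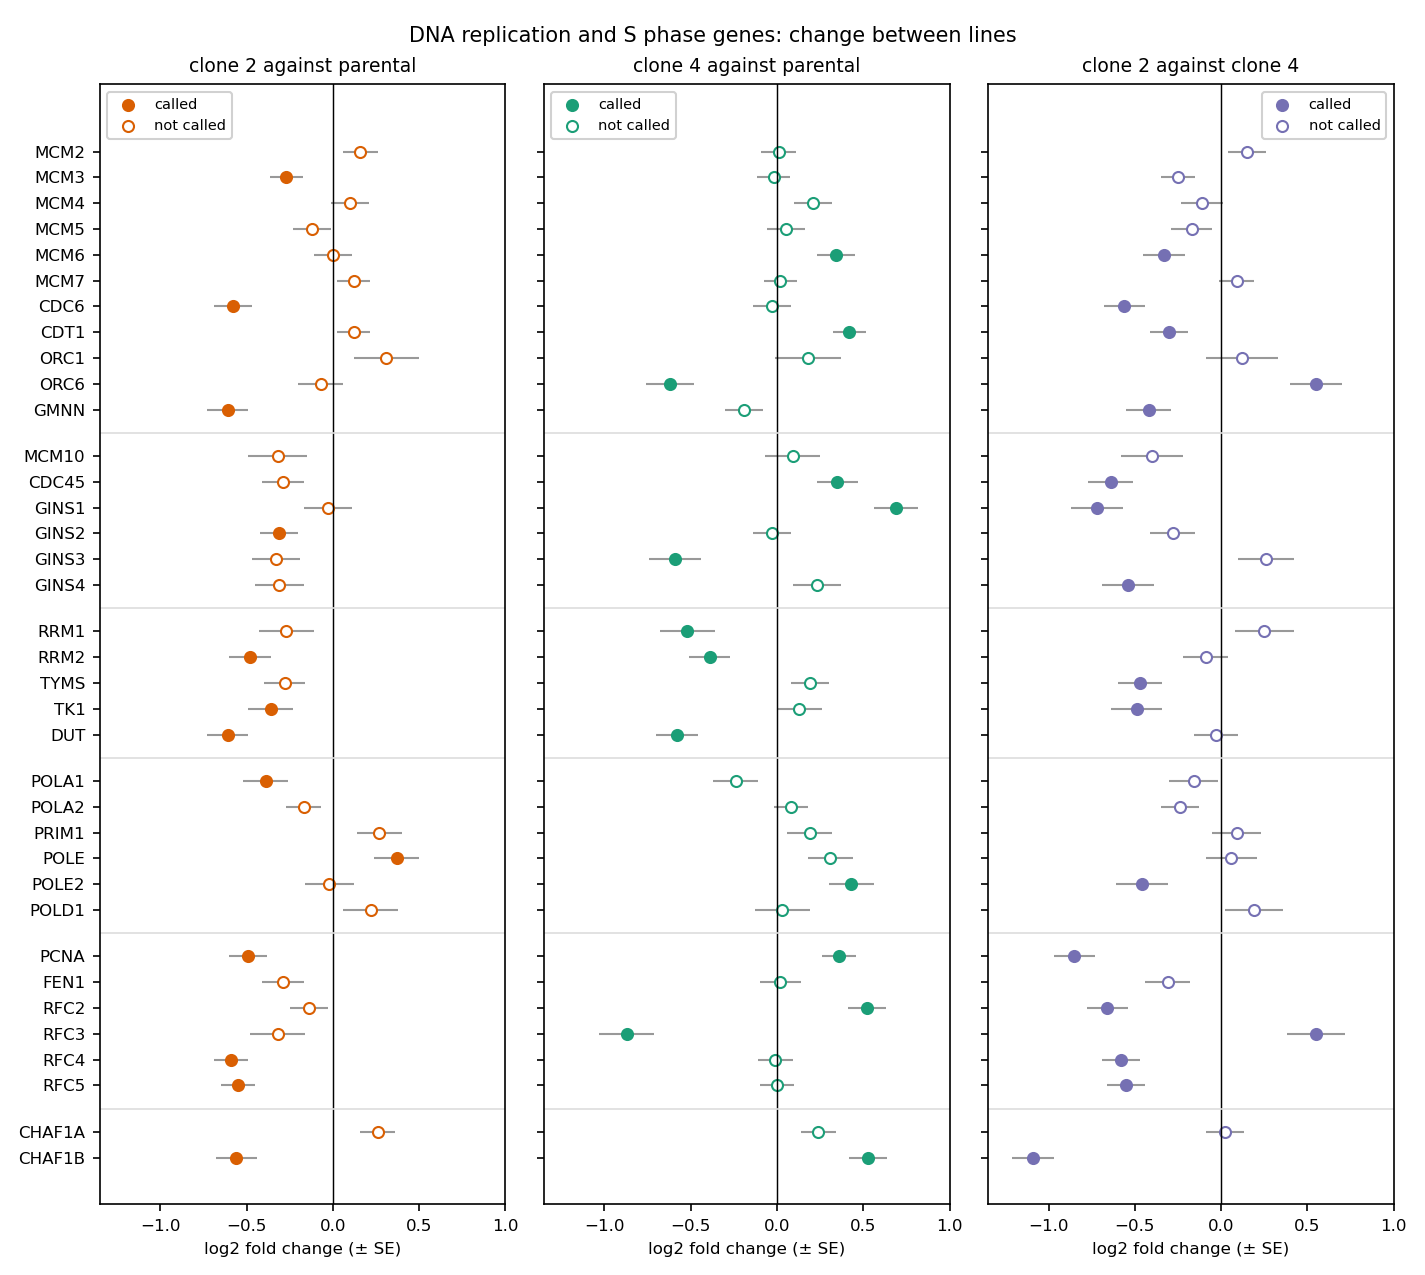
Log2 fold change of each of the 36 members (rows, grouped by role) with its standard error (bars), for clone 2 against parental, clone 4 against parental and clone 2 against clone 4; filled points were called at an adjusted p below 0.05. Filled points lie mostly left of 0 for clone 2 (12 lower, 1 higher), on both sides for clone 4 (6 lower, 8 higher) and mostly left of 0 between the clones (15 lower, 2 higher).

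Of the 11 origin licensing genes, 3 were called lower in clone 2 against parental cells, 2 higher and 1 lower in clone 4, and 1 higher and 4 lower in clone 2 against clone 4. The shares called were 27.3%, 27.3% and 45.5% in that order, against 42.5%, 44.4% and 36.5% of all genes tested. The clone 2 calls were CDC6, GMNN and MCM3. CDC6, the ATPase that brings the helicase to origins, had 43.3 and 41.7 CPM in clone 2, 68.2 and 56.4 CPM in clone 4 and 65.7, 60.9 and 64.4 CPM in parental cells. Both clone 2 libraries lay below all others, and clone 4 overlapped the parental range. The log2 fold change was -0.58 (SE 0.11, adjusted p = 0.000857) in clone 2 against parental cells, -0.03 (not called) in clone 4, and -0.56 (adjusted p = 0.00286) in clone 2 against clone 4. GMNN, the inhibitor of CDT1, had 38.9 and 40.8 CPM in clone 2, 57.6 and 49.4 CPM in clone 4 and 56.2 to 67.3 CPM in parental cells. Its log2 fold change was -0.61 (SE 0.12, adjusted p = 0.000857) in clone 2 and -0.19, not called, in clone 4. The difference between the clones, -0.42, was lost without clone 4 replicate 1 (-0.31), clone 2 replicate 1 (-0.39) or clone 2 replicate 2 (-0.46).

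CDT1 itself, the loader that GMNN inhibits, had 76.6 and 69.7 CPM in clone 2, 88.3 and 91.7 CPM in clone 4 and 68.8, 65.7 and 66.9 CPM in parental cells. Clone 4 lay above every other library, and its log2 fold change of 0.42 (SE 0.096, adjusted p = 0.00286) stayed called without any 1 library. In clone 2 the value was 0.12 and was not called. ORC6, the smallest subunit of the origin recognition complex, moved the other way in clone 4. It had 28.9 and 30.6 CPM in clone 2, 19.7 and 21.0 CPM in clone 4 and 29, 27.9 and 37.2 CPM in parental cells. Only the clone 4 libraries stood apart, with a log2 fold change of -0.62 (SE 0.14, adjusted p = 0.00261), against -0.07 (not called) in clone 2. ORC1, the large subunit of that complex, was the least abundant member, at 5.93 to 9.56 CPM over all libraries, and was called in no comparison. Between the clones, ORC6 was higher in clone 2 by 0.55, a call lost without clone 4 replicate 1 (0.50) or clone 2 replicate 2 (0.51). CDT1 was lower in clone 2 than in clone 4 by a log2 fold change of -0.30, and no clone library could be left out without losing it (-0.33 and -0.28 without clone 4 replicates 1 and 2, -0.37 and -0.23 without clone 2 replicates 1 and 2), nor parental replicate 1 (-0.30).

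Of the MCM2 to MCM7 subunits, which together form the helicase ring, 4 of 6 were called in no comparison. MCM7 had 157 and 161 CPM in clone 2, 154 and 144 CPM in clone 4, and 153, 140 and 148 CPM in parental cells. Clone 2 lay above the other lines by a margin that was not called (log2 fold change 0.12 against parental cells, SE 0.094), and clone 4 overlapped the parental range. MCM2, MCM4 and MCM5 were the others not called, with log2 fold changes between -0.17 and 0.21. MCM3 had 198 and 186 CPM in clone 2, 233 and 226 CPM in clone 4 and 222 to 246 CPM in parental cells, so that only clone 2 lay apart. Its log2 fold change in clone 2 was -0.27 (SE 0.095, adjusted p = 0.0319), a call lost without clone 2 replicate 1 (-0.33), clone 2 replicate 2 (-0.24) or parental replicate 1 (-0.28). MCM6 had 66.6 and 67.3 CPM in clone 2, 89.4 and 79.2 CPM in clone 4 and 59.3 to 72.6 CPM in parental cells, so that clone 4 stood above the rest. Its log2 fold change in clone 4 was 0.34 (SE 0.11, adjusted p = 0.0224) and 0.00 in clone 2. That call was lost without clone 4 replicate 1 (0.24), clone 2 replicate 1 (0.32), clone 2 replicate 2 (0.33), parental replicate 1 (0.35) or parental replicate 2 (0.26). The value of MCM6 between the clones, -0.33, was lost without clone 4 replicate 1 (-0.25), clone 2 replicate 1 (-0.32), clone 2 replicate 2 (-0.34) or parental replicate 1 (-0.33).

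Levels per length show how unequal the mRNAs of the ring were in every line. Per kb of the longest coding transcript, MCM3 averaged 59.9 ± 2.6 CPM per kb in clone 2 (SD, n = 2), 71.5 ± 1.5 in clone 4 (n = 2) and 72.5 ± 3.8 in parental cells (n = 3). MCM6, the lowest of the ring in all 3 lines, averaged 17.9 ± 0.13, 22.6 ± 1.9 and 17.9 ± 1.8 CPM per kb in that order. Over all members, PCNA was the most abundant in parental cells at 227 ± 24 CPM per kb, followed by TK1 at 140 ± 28 and RFC4 at 92.3 ± 0.80. ORC1 was the least abundant at 2.22 ± 0.42 CPM per kb. The per kb values rest on 1 transcript per gene, and use of other isoforms would shift them.

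**Figure D2:**
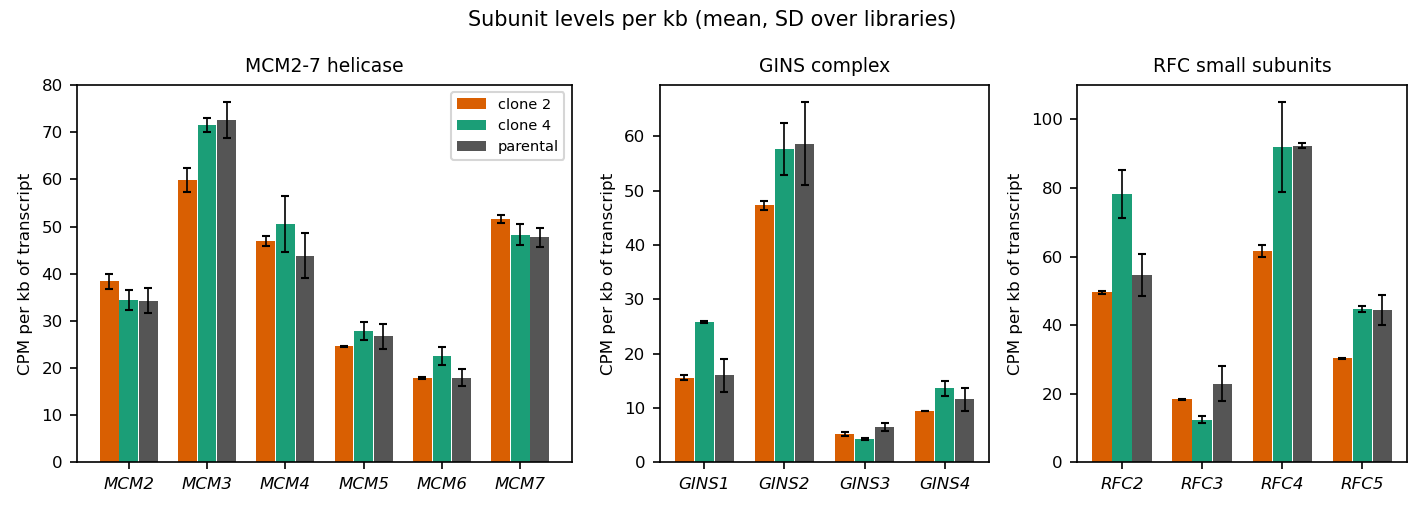
Mean level per kb of the longest coding transcript (CPM per kb, bars; error bars SD over 2, 2 and 3 libraries) of the MCM2-7 helicase, the GINS complex and the small RFC subunits in clone 2, clone 4 and parental cells. In parental cells the ring runs from 17.9 (MCM6) to 72.5 (MCM3); GINS1 and RFC2 are highest in clone 4, RFC4 and RFC5 lowest in clone 2, and RFC3 lowest in clone 4.

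Of the 6 helicase activation genes, 1 was called lower in clone 2, 2 were called higher and 1 lower in clone 4, and 3 were lower in clone 2 than in clone 4. The shares called were 16.7%, 50% and 50% in that order, against 42.5%, 44.4% and 36.5% of all genes tested. The subunits of the GINS complex moved apart in clone 4. GINS1 had 49.6 and 52.0 CPM in clone 2, 83.5 and 84.4 CPM in clone 4, and 49.0, 43.8 and 63.4 CPM in parental cells. The clone 4 libraries lay above all others, and clone 2 fell inside the parental range. GINS1 rose in clone 4 by 0.69 on the log2 scale (SE 0.13, adjusted p = 0.000916), the highest value among the members, while clone 2 had -0.03 and was not called. GINS3, a subunit of the same complex, had 12.4 and 11.4 CPM in clone 2, 10.2 and 9.52 CPM in clone 4 and 16.7, 13.6 and 14.5 CPM in parental cells. Both clones lay below the parental range, but only the clone 4 value of -0.59 (SE 0.15, adjusted p = 0.00568) was called, against -0.33 (adjusted p = 0.0823) in clone 2. The difference between the clones for GINS3, 0.26, was not called. Between the clones, GINS1 was lower in clone 2 by -0.72 (adjusted p = 0.00203).

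GINS2, the most abundant GINS subunit per kb, had 128 and 125 CPM in clone 2, 163 and 145 CPM in clone 4 and 143, 147 and 180 CPM in parental cells. Its log2 fold change of -0.31 in clone 2 (SE 0.11, adjusted p = 0.0449) was lost without clone 2 replicate 1 (-0.34), clone 2 replicate 2 (-0.30) or parental replicate 3 (-0.20), and clone 4 had -0.03. CDC45, the partner of GINS and MCM in the active helicase, had 26.4 and 26.7 CPM in clone 2, 38.4 and 44.4 CPM in clone 4 and 30.9, 29.8 and 36.4 CPM in parental cells. The 3 lines did not overlap, with clone 2 lowest and clone 4 highest. Clone 2 against clone 4 gave -0.64 (SE 0.13, adjusted p = 0.00235), a call that held without any 1 library. The value of 0.35 in clone 4 against parental cells was called, but was lost without clone 4 replicate 2 (0.25), either clone 2 library (0.34), parental replicate 1 (0.32) or parental replicate 2 (0.29). In clone 2 it was -0.29 (adjusted p = 0.0774). GINS4 was lower in clone 2 than in clone 4 by -0.54, which was lost without clone 4 replicate 1 (-0.43), clone 2 replicate 1 (-0.54) or clone 2 replicate 2 (-0.53). An antisense gene covers 21.2% of the GINS4 exon bases, and reads of the pair cannot be told apart because the strand setting of the counting is not known. MCM10, a factor that helps start the helicase, was not called in any comparison.

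Of the 5 nucleotide supply genes, 3 were called lower in clone 2 (DUT, RRM2 and TK1) and 3 in clone 4 (DUT, RRM2 and RRM1), and 2 were lower in clone 2 than in clone 4. The shares called were 60%, 60% and 40% in that order, against 42.5%, 44.4% and 36.5% of all genes tested. DUT, the dUTPase that keeps uracil out of DNA, had 63.6 and 63.1 CPM in clone 2, 69.4 and 59.7 CPM in clone 4, and 91.9, 88.3 and 111 CPM in parental cells. All clone libraries lay below all parental ones. The log2 fold change was -0.61 (SE 0.12, adjusted p = 0.00100) in clone 2 and -0.58 (SE 0.12, adjusted p = 0.00136) in clone 4, and -0.03 (not called) between the clones. RRM2, the small subunit of ribonucleotide reductase, which makes deoxynucleotides, had 108 and 112 CPM in clone 2, 124 and 110 CPM in clone 4 and 147, 137 and 176 CPM in parental cells. Both clones again lay below the parental range. RRM2 fell by 0.48 in clone 2 and by 0.39 in clone 4 on the log2 scale (adjusted p = 0.00480 and 0.0146), a call lost in clone 2 without clone 2 replicate 1 (-0.47) and in clone 4 without clone 4 replicate 2 (-0.31). RRM1, the large subunit, had 91.0 and 94.8 CPM in clone 2, 96.0 and 60.4 CPM in clone 4 and 124, 98.4 and 114 CPM in parental cells. All clone libraries lay below the parental range, with clone 4 replicate 2 far below the rest. Its called value of -0.52 in clone 4 rested mainly on replicate 2, since it was -0.22 (adjusted p = 0.228) without that library, over a range of -0.90 to -0.22 among the alternatives. It was also lost without parental replicate 1 (-0.44), and clone 2 had -0.27, not called.

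Thymidylate synthase and thymidine kinase, which make dTMP by synthesis and by salvage, differed between the clones. TYMS had 62.6 and 60.1 CPM in clone 2, 88.6 and 81.2 CPM in clone 4 and 66.4 to 84.8 CPM in parental cells, and was not called in either clone against parental cells. Clone 2 lay below every other library. TYMS was lower in clone 2 than in clone 4 by -0.47 (SE 0.13, adjusted p = 0.0104), a call lost without clone 2 replicate 1 (-0.50) or clone 2 replicate 2 (-0.44). ENOSF1, on the opposite strand, covers 39.1% of the TYMS exon bases, and its log2 fold changes were 0.22 in clone 2 (not called) and 0.32 in clone 4 (called). TK1 had 180 and 186 CPM in clone 2, 248 and 268 CPM in clone 4 and 206, 212 and 290 CPM in parental cells, where replicate 3 stood above every other library. Its value of -0.36 in clone 2 (SE 0.13, adjusted p = 0.0427) was lost without that library (-0.19), clone 2 replicate 1 (-0.35) or clone 2 replicate 2 (-0.40). Between the clones TK1 had -0.49, lost without clone 4 replicate 2 (-0.45), clone 2 replicate 1 (-0.47) or clone 2 replicate 2 (-0.51).

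Of the 6 polymerase and primase genes, 1 was called higher and 1 lower in clone 2, 1 was called higher in clone 4, and 1 was lower in clone 2 than in clone 4. The shares called were 33.3%, 16.7% and 16.7% in that order, against 42.5%, 44.4% and 36.5% of all genes tested. POLE had 236 and 226 CPM in clone 2, 196 and 247 CPM in clone 4 and 160, 164 and 213 CPM in parental cells. Clone 2 lay above the parental range and clone 4 overlapped it. The log2 fold change was 0.37 (SE 0.13, adjusted p = 0.0383) in clone 2 and 0.31 (adjusted p = 0.0771) in clone 4. The clone 2 call was lost with RLE scaling (0.35) and without clone 2 replicate 1 (0.32), clone 2 replicate 2 (0.39), parental replicate 1 (0.29) or parental replicate 2 (0.31). POLE2, the second subunit of polymerase epsilon, had 19.4 and 22.1 CPM in clone 2, 28.3 and 28.8 CPM in clone 4 and 19.1, 19.5 and 24.9 CPM in parental cells, so that only clone 4 stood apart. It was higher in clone 4 by 0.43 (SE 0.13, adjusted p = 0.0189), lost without clone 4 replicate 1 (0.44), clone 4 replicate 2 (0.42), parental replicate 1 (0.37) or parental replicate 2 (0.37). Its value between the clones was -0.46, lost without clone 4 replicate 1 (-0.47), clone 4 replicate 2 (-0.45), clone 2 replicate 1 (-0.37) or clone 2 replicate 2 (-0.56). POLA1, the catalytic subunit of polymerase alpha, was lower in clone 2 by -0.39 (SE 0.13, adjusted p = 0.0232), with 37.3 and 33.6 CPM in clone 2 and 48.2, 40.6 and 50.9 CPM in parental cells. That call was lost without clone 2 replicate 1 (-0.48), clone 2 replicate 2 (-0.33), parental replicate 1 (-0.37) or parental replicate 3 (-0.33). POLA2 and PRIM1, 2 other subunits of the polymerase alpha-primase complex, and POLD1, the catalytic subunit of polymerase delta, were not called in any comparison. PRIM2, the remaining subunit of that complex and not among the 36 members, was named after its values were seen. It was called lower in clone 2 (-0.40, adjusted p = 0.0293) and not in clone 4 (-0.12), and the clone 2 call was lost with library totals (-0.26), with the replicate block (-0.27), in the test against a fold of 1.5, and without clone 2 replicate 1 (-0.51), clone 2 replicate 2 (-0.31) or parental replicate 3 (-0.27).

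Of the 6 genes for the clamp, its loader and the flap nuclease, 3 were called lower in clone 2, 2 higher and 1 lower in clone 4, and 1 higher and 4 lower in clone 2 against clone 4. The shares called were 50%, 50% and 83.3% in that order, against 42.5%, 44.4% and 36.5% of all genes tested. PCNA, the sliding clamp, had 220 and 219 CPM in clone 2, 408 and 381 CPM in clone 4 and 288, 291 and 346 CPM in parental cells. The 3 lines did not overlap, with clone 2 below and clone 4 above the parental libraries. PCNA fell by 0.49 on the log2 scale in clone 2 (SE 0.11, adjusted p = 0.00228) and rose by 0.36 in clone 4 (SE 0.10, adjusted p = 0.0133). The clone 4 call was lost without clone 4 replicate 1 (0.30) or parental replicate 1 (0.31), with adjusted p up to 0.0711 over the alternatives other than the test against a fold of 1.5. Clone 2 against clone 4 gave -0.85 (SE 0.12, adjusted p = 0.000128), and this value stayed between -0.91 and -0.70 under those alternatives. FEN1, the nuclease that trims Okazaki fragments on PCNA, was not called in any comparison, at -0.29 in clone 2 and 0.02 in clone 4 against parental cells. In clone 2 it lay near the threshold (adjusted p = 0.0610) and was called lower in 7 of 15 alternatives, as it was in 5 of 15 for clone 2 against clone 4.

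Among the small RFC subunits, which with RFC1 form the clamp loader, no 2 had the same pattern of calls except RFC4 and RFC5. RFC4 had 91.0 and 87.3 CPM in clone 2, 146 and 120 CPM in clone 4 and 133, 133 and 135 CPM in parental cells, and RFC5 had 74.6 and 74.1 CPM in clone 2, 111 and 108 CPM in clone 4 and 102 to 121 CPM in parental cells. Both were low in clone 2 only, with log2 fold changes of -0.59 (adjusted p = 0.000564) and -0.55 (adjusted p = 0.000857), against -0.01 and 0.00 in clone 4. They were lower in clone 2 than in clone 4 by -0.58 and -0.55, and all these calls held without any 1 library. WSB2, on the opposite strand, covers 5.72% of the RFC5 exon bases, and its log2 fold changes were -0.96 in clone 2 and -0.86 in clone 4. RFC2 had 83.6 and 84.7 CPM in clone 2, 141 and 124 CPM in clone 4 and 88.4, 84.6 and 104 CPM in parental cells. It was high in clone 4 only, by 0.52 (SE 0.11, adjusted p = 0.00170), and differed between the clones by -0.66 (adjusted p = 0.00107). RFC3 had 43.9 and 44.5 CPM in clone 2, 31.9 and 28.2 CPM in clone 4 and 55.2, 42.8 and 67.6 CPM in parental cells. It was low in clone 4, where -0.87 (SE 0.16, adjusted p = 0.000680) was the lowest value of any member against parental cells, and it had -0.32 (not called) in clone 2. The parental libraries spread widely for RFC3, with replicate 2 below both clone 2 libraries. Its difference between the clones, 0.55, was lost without clone 4 replicate 1 (0.65), clone 4 replicate 2 (0.46), clone 2 replicate 1 (0.57) or clone 2 replicate 2 (0.55).

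Chromatin assembly factor 1 deposits histones H3 and H4 behind the fork, and its subunits CHAF1A and CHAF1B differed from each other. CHAF1B had 29.2 and 29.9 CPM in clone 2, 67 and 58.9 CPM in clone 4 and 47.4, 40.0 and 43.8 CPM in parental cells. The 3 lines did not overlap. CHAF1B fell by 0.56 in clone 2 (SE 0.12, adjusted p = 0.00149) and rose by 0.53 in clone 4 (SE 0.11, adjusted p = 0.00156). At -1.09 (SE 0.12, adjusted p = 3.34e-05), its difference between the clones was the largest of the 36 members and the only one called in any comparison when the test was made against a fold of 1.5. CHAF1A, the large subunit, had 56.6 and 53.5 CPM in clone 2, 56.1 and 52.0 CPM in clone 4 and 46.9, 42.6 and 47.9 CPM in parental cells. Both clones lay above the parental range, yet neither 0.26 in clone 2 (adjusted p = 0.0539) nor 0.24 in clone 4 (adjusted p = 0.0746) was called, and the clones differed by 0.02.

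**Figure D3:**
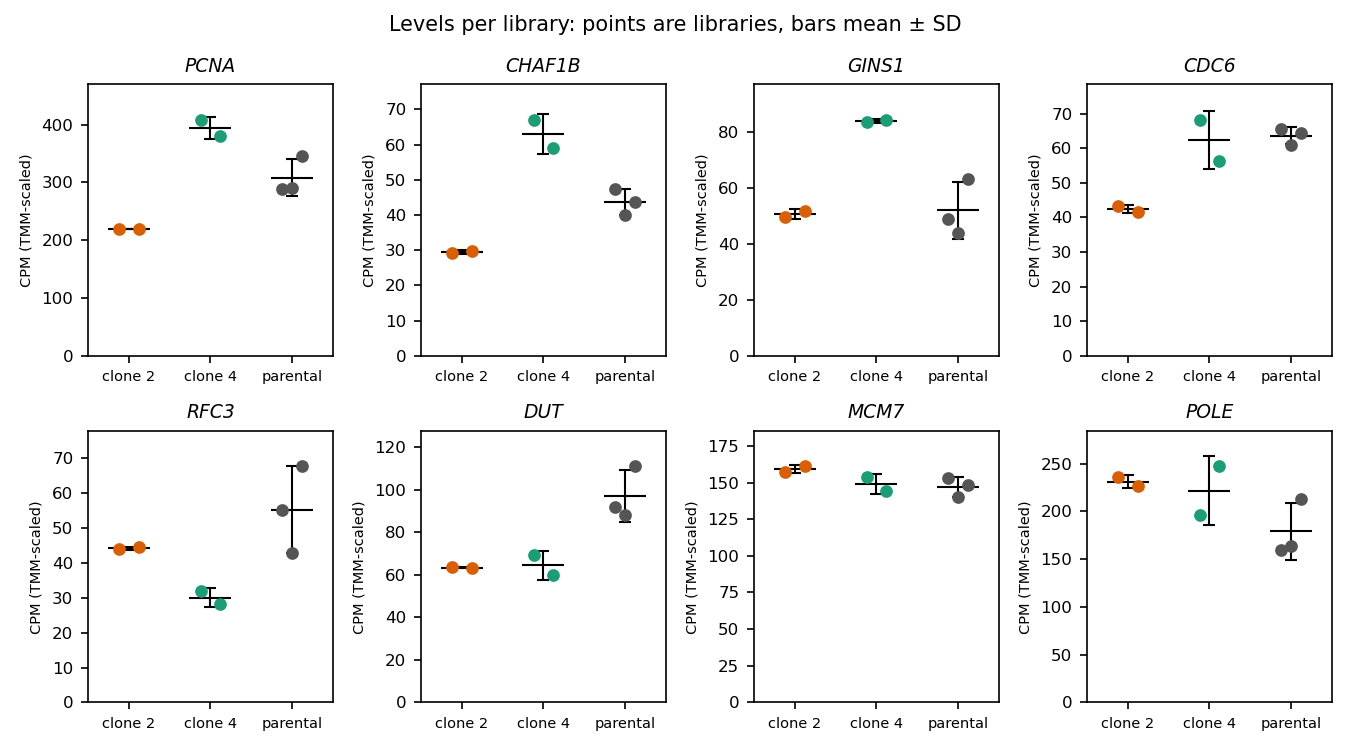
Level of 8 members in each library (TMM-scaled CPM, points) with group mean and SD (bars), for clone 2, clone 4 and parental cells. PCNA and CHAF1B separate all 3 lines, GINS1 is high in clone 4 only, CDC6 is low in clone 2 only, RFC3 is lowest in clone 4, DUT is low in both clones, MCM7 was called in no comparison and POLE in clone 2 against parental cells only.

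Across the members, PCNA and CHAF1B were called lower in clone 2 and higher in clone 4, DUT and RRM2 were called lower in both clones, and 13 of 36 were called in neither clone against parental cells. Of all genes tested, 42.5% were called in clone 2 and 44.4% in clone 4. The shares of all genes called in both clones or in neither were not computed, so these joint counts are not read as a trait of the members. Calls that held in every alternative other than the test against a fold of 1.5 numbered 7 of 12 lower calls in clone 2 (CDC6, GMNN, DUT, PCNA, RFC4, RFC5 and CHAF1B). In clone 4 they were 4 of 8 higher (CDT1, GINS1, RFC2 and CHAF1B) and 4 of 6 lower (ORC6, GINS3, DUT and RFC3). Between the clones, 8 of 15 lower calls held (CDC6, CDC45, GINS1, PCNA, RFC2, RFC4, RFC5 and CHAF1B) and neither of the 2 higher calls held. The left-out libraries listed for single calls mostly leave out losses under the other alternatives. Of 14 alternatives, the clone 2 calls of MCM3, GINS2 and TK1 were lost in 4, 5 and 5, with values up to -0.13, -0.16 and -0.19. Between the clones, CDT1 and MCM6 lost theirs in 7 and 6, with values up to -0.15 and -0.19.

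Some members gained a call when 1 library was left out. Without parental replicate 3, CHAF1A (0.29) and ORC1 (0.46) were called higher in clone 2, and POLE (0.44), GINS4 (0.37), TK1 (0.29), TYMS (0.29) and MCM4 (0.28) were called higher in clone 4. Clone 2 against clone 4 then gained MCM10 (-0.40), FEN1 (-0.31), GINS2 (-0.28) and MCM3 (-0.25). Without parental replicate 2, MCM10 (-0.47), RFC3 (-0.47), GINS4 (-0.41), FEN1 (-0.39) and TYMS (-0.35) were called lower in clone 2, and FEN1 (-0.31) was lower in clone 2 than in clone 4. Leaving out either clone 4 library added CHAF1A (0.25), FEN1 (-0.30), TYMS (-0.29) and RRM1 (-0.28) in clone 2. Without clone 4 replicate 1, POLE (0.46) was called in clone 4 and RRM1 (0.62) was higher in clone 2 than in clone 4. Without clone 4 replicate 2, CDC45 (-0.30) was called in clone 2 and PRIM1 (0.38) in clone 4, and FEN1 (-0.43) was lower in clone 2 than in clone 4.

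The members called lower in clone 4 were looked up on the chromosomes, with the 10 tested genes on each side as their neighbours (GENCODE v29 gene order, 96.8% of tested genes placed). RFC3 lies on chromosome 13, the chromosome of RB1, and its 20 neighbours had a median log2 fold change of -1.03 in clone 4, with 17 of 20 called lower. GINS3 on chromosome 16 had neighbours with a median of -0.83 and 15 of 20 called lower. ORC6, also on chromosome 16, had neighbours at -0.49 with 11 lower, and DUT on chromosome 15 had neighbours at -0.45 with 12 lower. These 4 members thus lay among neighbours that were mostly lower as well. RRM1 on chromosome 11 and RRM2 on chromosome 2 did not, with neighbour medians of 0.09 and -0.09. Over all 16938 such windows in the genome, the 5th to 95th percentile of the median was -0.57 to 0.43, so that of these 6 members only RFC3 and GINS3 had neighbourhoods outside it. The 8 members called higher in clone 4 had neighbour medians from -0.21 (PCNA) to 0.34 (POLE2), with 0.03 for GINS1, 0.09 for RFC2, 0.17 for CDT1 and 0.19 for CHAF1B. The neighbours of POLE2 included 10 of 20 called higher. In clone 2 the neighbours of RFC3 had a median of -0.39, with 11 of 20 called lower, those of DUT had -0.11 and those of PCNA -0.09. Other members did not lie near their neighbours' values. RFC5 (0.00, not called in clone 4) had neighbours at -0.33 there, with 11 of 20 called lower. MCM7 (0.02), MCM3 (-0.02) and FEN1 (0.02), also not called in clone 4, had neighbours at 0.38, 0.33 and 0.33. Of these neighbours, 11, 9 and 10 of 20 were called higher. CDT1 (0.12, not called in clone 2) had neighbours at 0.8 there, with 14 of 20 called higher. Whether any member moved with its neighbours was not tested.

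**Figure D4:**
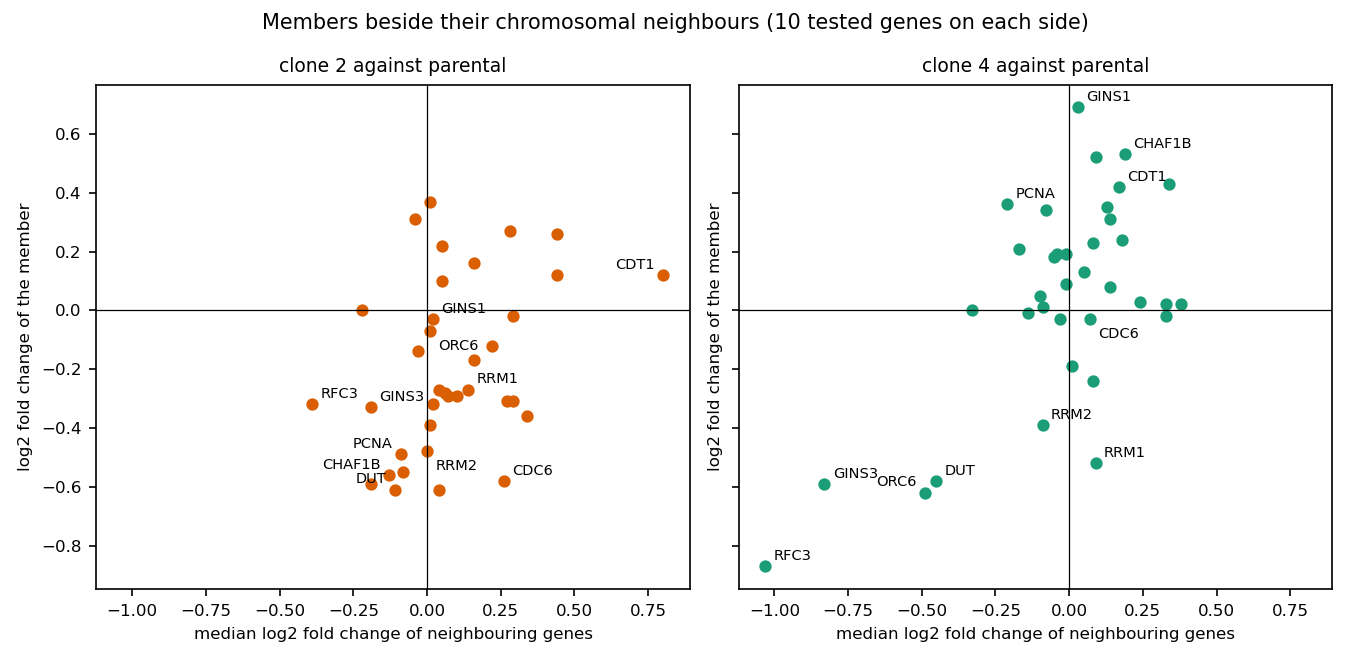
Log2 fold change of each member (y axis) against the median log2 fold change of its 20 neighbouring tested genes (x axis), for clone 2 and clone 4 against parental cells; 11 members are named. In clone 4, RFC3, GINS3, ORC6 and DUT sit at the lower left with neighbour medians of -1.03 to -0.45, while the named members GINS1, CHAF1B, CDT1 and PCNA are high, with neighbour medians of -0.21 to 0.19.

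Of 41 other replication genes, 3 were called higher and 9 lower in clone 2 (29.3%, against 42.5% of all genes tested), and 9 higher and 6 lower in clone 4 (36.6%, against 44.4%). In clone 2, DNMT1 (0.62), the methylase that copies DNA methylation at the fork, and CHTF18 (0.54) rose, and KIAA0101 (-0.93), a PCNA-binding protein, RNASEH2A (-0.64) and DSCC1 (-0.61) fell. In clone 4, the origin-firing kinase CDC7 (0.84), WDHD1 (0.84) and the histone chaperone NASP (0.64) rose, while RPA1 (-0.61), which coats single-stranded DNA, TOP1 (-0.43) and DBF4 (-0.42), the activator of CDC7, fell. The values in brackets are log2 fold changes against parental cells. DNMT1 (0.42) and RNASEH2A (0.37) were also called higher in clone 4, and RPA1 (-0.35) was also called lower in clone 2. Those calls were lost in 2, 2 and 5 of 15 alternatives. The other genes just named were not called in the other clone. Without clone 2 replicate 1, CHTF18 (0.44) and DSCC1 (-0.46) lost their calls, as did CHTF18 without parental replicate 1 (0.49) or 2 (0.45). POLD2 was called higher in clone 4 (0.37) and in clone 2 (0.31). The clone 2 call was lost without clone 2 replicate 1 (0.26) or replicate 2 (0.34). TOP1 lost its call without clone 4 replicate 2 (-0.28), and DBF4 without clone 4 replicate 2 (-0.27), either clone 2 library (-0.43), parental replicate 1 (-0.44) or parental replicate 3 (-0.26).

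Of 17 further nucleotide supply genes, 1 was called higher and 9 lower in clone 2 (58.8%, against 42.5% of all genes tested), and 2 higher and 6 lower in clone 4 (47.1%, against 44.4%). GMPS and ATIC, which act in purine synthesis, had -0.94 and -0.75 in clone 2, both called. In clone 4, GMPS had -0.49 and ATIC -0.41, both called. The ATIC call was lost without clone 4 replicate 2 (-0.32). SHMT1 was called lower in both clones (-0.66 in clone 2 and -0.55 in clone 4). CTPS1 (-0.45) also fell in clone 4, and SAMHD1 (0.64), which degrades deoxynucleotides, rose there. In clone 2, CTPS1 (-0.24) and SAMHD1 (0.27) were not called. NME1 was called higher in clone 4 (0.55) and lower in clone 2 (-0.57). RRM2B, the ribonucleotide reductase subunit known as a p53 target, was called higher in clone 2 (0.68) and lower in clone 4 (-0.40), the clone 4 call being lost without clone 4 replicate 2 (-0.29), parental replicate 1 (-0.39) or parental replicate 3 (-0.29). Of 25 genes of the G2 and M phases, 8 were called in clone 2, each of them lower, and 2 were called higher and 6 lower in clone 4. This was 32% of the list in each clone, against 42.5% of all genes tested in clone 2 and 44.4% in clone 4. CDK1 (-0.71), UBE2C (-0.65) and NUSAP1 (-0.61) fell in clone 2. NUSAP1 was called lower in clone 4 as well (-0.82), while CDK1 was not called there (-0.20). In clone 4, PLK1 (-1.25), KIF23 (-0.89) and BUB1B (-0.88) fell, while AURKB (0.46) and UBE2C (0.37) were called higher. AURKB lost its call without clone 4 replicate 2 (0.29) or parental replicate 1 (0.36). UBE2C lost it without clone 4 replicate 2 (0.22), either clone 2 library (0.35), parental replicate 1 (0.26) or parental replicate 2 (0.31).

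Of 31 regulators of entry into the cell cycle, 10 were called higher and 6 lower in clone 2 (51.6%, against 42.5% of all genes tested), and 9 higher and 5 lower in clone 4 (45.2%, against 44.4%). Their log2 fold changes ran from -1.03 to 2.37 in clone 2 and from -8.13 to 1.21 in clone 4. RB1 had 28.3 and 29.1 CPM in clone 2, 0.137 and 0.250 CPM in clone 4, and 57.9, 49.6 and 58.0 CPM in parental cells. The clone 4 libraries held nearly no RB1 reads, and clone 2 lay between clone 4 and parental cells, with log2 fold changes of -0.94 in clone 2 and -8.13 in clone 4. RBL2, a related pocket protein, had -0.40 in clone 2 and -1.21 in clone 4, and the clone 2 call was lost without clone 2 replicate 1 (-0.45) or 2 (-0.37). E2F1 had 89.3 and 92.0 CPM in clone 2, 123 and 144 CPM in clone 4 and 76.1, 74.6 and 86.0 CPM in parental cells. It rose by 0.76 in clone 4, against 0.20 (not called) in clone 2, while E2F3 rose in both, by 0.93 in clone 2 and 1.18 in clone 4. TFDP1, the DNA-binding partner of the E2F factors, was named after its values were seen and had the lowest value of the list in clone 2. It had 82.7 and 79 CPM in clone 2, 46.4 and 43.6 CPM in clone 4 and 166, 145 and 185 CPM in parental cells, so that the 3 lines did not overlap. TFDP1 gave -1.03 in clone 2 (adjusted p = 1.18e-05) and -1.87 in clone 4 (adjusted p = 6.69e-08), and both calls held in all 15 alternatives. CCNE1, the cyclin that drives CDK2 into S phase, rose by 1.81 in clone 2 and 1.21 in clone 4, and CDK6 by 2.37 and 1.11. CDKN1A, the p21 inhibitor of CDK2 that also binds PCNA, had 102 and 101 CPM in clone 2, 47.3 and 43.6 CPM in clone 4 and 24.8, 26.3 and 24.1 CPM in parental cells, a rise of 2.02 in clone 2 and 0.86 in clone 4. CCND1 had 0.85 (called) in clone 2 and -0.01 in clone 4, and CDK4 had -0.36 in clone 2, lost without clone 2 replicate 1 (-0.40) or 2 (-0.34), and -0.15 in clone 4. CCNE2 was called in clone 4 (0.39) and not in clone 2 (-0.28). That call was lost without clone 4 replicate 1 (0.43), clone 4 replicate 2 (0.34), either clone 2 library (0.38), parental replicate 1 (0.33) or parental replicate 2 (0.28). E2F7, a repressor of replication genes, had -0.35 in clone 2 and -0.42 in clone 4. Its clone 2 call was lost without clone 2 replicate 1 (-0.34), clone 2 replicate 2 (-0.38) or parental replicate 2 (-0.34), and its clone 4 call without clone 4 replicate 2 (-0.35). CDK2, CCNA2, CDC25A, MYBL2, RBL1, E2F2 and E2F8 were called in neither clone against parental cells.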

How the data were processed

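RNA of 7 T47D libraries was analysed from 1 table. The authors deposited it as whole-number counts of reads for each Ensembl gene with its symbol, and the counts were not altered here. Of the steps before, the submitters' processing notes list STAR, CASAVA, FastQC and hg19, with no version. No source used here names the counting program, the annotation release or whether counting used strand. Rows without a symbol (6724) took 1.02% to 1.41% of the counts and stayed in the fit.

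Counts were fitted with edgeR 4.0.16 in R 4.3.3: filterByExpr (minimum count 10), TMM scaling, 3 group means over all 7 libraries, and robust quasi-likelihood tests. Calls needed an adjusted p (Benjamini-Hochberg, all 17502 genes tested) below 0.05. The common biological coefficient of variation was 0.0997, and standard errors were taken from the quasi-F statistic. Libraries held 10997625 to 17524621 counts. The chi-square per degree of freedom between libraries of a group was 12.7 in clone 4 and 5.27 to 16.8 in parental cells, well above sampling noise. In clone 2 it was 1.48, so its 2 libraries differed by little more than sampling noise. They may be technical repeats, and where both lay on 1 side of another group this may rest on little more than 1 independent sample. The fit used 1 estimate of the spread for all 3 groups.

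The 36 members and the other lists were chosen with earlier results of these data known. All members are named, with up to 3 higher and 3 lower genes by size of change from the other lists and a set of entry regulators, whatever their values; 1 gene that this rule names is not reported here. Genes that share exons with a member, PRIM2 and TFDP1 were named after their values were seen. Gene lengths, order and overlaps came from GENCODE v29 (GRCh38) by gene ID, and promoters from RefSeq. The script was checked on simulated counts. Alternatives were RLE scaling, library totals, DESeq2 1.42.0, 2 other filters, fits of only the groups compared, a replicate block, a test against a fold of 1.5, and leaving out each library.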

Additional observations from a re-analysis of the deposited data

Results flagged for a closer look

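For 17 members, clone 2 and clone 4 differed from each other in the direct contrast (edgeR, adjusted p below 0.05 over all genes tested); since both clones share the parental libraries, this tests the difference between their changes. The log2 fold changes of clone 2 minus clone 4 were -1.09 for CHAF1B, -0.85 for PCNA, -0.72 for GINS1, -0.66 for RFC2, -0.64 for CDC45, -0.58 for RFC4, -0.56 for CDC6 and -0.55 for RFC5. These 8 held under every alternative other than the test against a fold of 1.5, which CHAF1B passed as well. The other lower values were -0.54 for GINS4, -0.49 for TK1, -0.47 for TYMS, -0.46 for POLE2, -0.42 for GMNN, -0.33 for MCM6 and -0.30 for CDT1. ORC6 and RFC3 were higher in clone 2, each by 0.55. Both libraries of clone 2 lay on 1 side of both libraries of clone 4 for all 17, as did 72.2% of all genes tested. No group had 4 or more libraries, so single libraries were not screened for standing apart.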

How the results depend on the processing

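No call of a member changed direction under any alternative. Over 36 members, 3 comparisons and 15 alternatives, 1423 of 1620 values stayed on the same side of the threshold, 127 lost a call and 70 gained one. Against a fold of 1.5, clone 2 and clone 4 each had 0 higher and 0 lower members against parental cells, and clone 2 against clone 4 had 0 higher and 1 lower (glmTreat in edgeR; at an unadjusted p below 0.05, 0 higher and 0 lower, 0 and 1, and 0 and 2). Members called higher in clone 2 numbered 0 with RLE scaling, 6 with library totals, 2 with the stricter filter and 3 with only the groups compared, against 1; with no filter beyond 1 count, 18 were called lower, against 12. Leaving out 1 library gave 0 to 3 higher and 7 to 17 lower in clone 2, 4 to 13 higher and 4 to 6 lower in clone 4, and 0 to 2 higher and 8 to 19 lower in clone 2 against clone 4. Fits that left out a clone 2 library also called fewer of all genes tested in each comparison. With library totals, 8 members were lower in clone 2 against clone 4, against 15. With DESeq2 the counts were 1 and 13 in clone 2, 8 and 6 in clone 4, and 2 and 16 between the clones.

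The labels state no pairing by replicate number. Deviations of same-numbered libraries from their group means correlated at -0.078 to 0.186. These values cannot decide whether libraries were paired, since in a group of 2 libraries the deviations mirror each other. With the replicate block, 5 members were called higher in clone 2 and 15 in clone 4. The clones have no replicate 3, so the block also sets parental replicate 3 apart. Leaving out that library gave 3 higher in clone 2 and 13 in clone 4. Over the 3 comparisons the block added 15 calls and removed 2. With 2 or 3 libraries per group, a member not called is not shown to be equal between lines.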
